A study of Homo sapiens with 6 samples.

Results

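Long noncoding RNAs (lncRNAs) are transcripts that are not translated into protein, although many are spliced and polyadenylated like messenger RNAs. Some act in the nucleus on chromatin or as scaffolds of nuclear bodies, some act in the cytoplasm, and some serve mainly as the precursors of small nucleolar RNAs (snoRNAs) or microRNAs. Many start next to, or run antisense to, a protein-coding gene, and several are known for high levels in breast tumours, HOTAIR and MALAT1 among them. In the 3′ RNA-seq data examined here, 325 of the 10487 listed genes were lncRNA genes, taken as every row whose Ensembl identifier has the gene type lncRNA in GENCODE 44. GENCODE 44 holds 18866 lncRNA genes in all, so the listed ones were 1.72% of them, against 50.4% of the protein-coding genes (10112 of 20046). The authors' filter was an average above 5 CPM (read counts scaled to a common library size) in at least 1 condition. Every listed gene also had at least 1 read in each library, which that filter alone does not require. Genes without reads in a library are thus absent, and the reason is not stated.

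The cells were MDA-MB-468, an untreated human triple negative breast cancer line. The 3 control libraries carry the genotype label WT, and the 3 IGFBP2 overexpression libraries come from a single stable line, MDAMB468-VHP-IGFBP2, in which a guide RNA directs an activator built on a Cas9 that does not cut DNA to the IGFBP2 promoter. IGFBP2 is a secreted protein that binds insulin-like growth factors. Whether the control cells carry the activator without the guide is not stated, so an effect of the activator and of the derivation of the line cannot be told apart from one of IGFBP2. The libraries were described as biological replicates of each line, and p-values measure the spread among them. IGFBP2 itself stood at 93.5 to 136 CPM in the controls and 498 to 1176 CPM in the overexpression libraries, and no listed lncRNA gene lay within 1000000 bases of it. Of 10 markers of breast epithelium, 9 were listed (EPCAM, KRT5, KRT8, KRT14, KRT17, KRT18, KRT19, EGFR and CDH1), a set not specific to basal cells. None of 5 leukocyte and none of 4 endothelial markers were listed. Of 5 fibroblast markers only COL1A1 was listed, at a mean of 15.4 CPM, and of the receptor genes ESR1, PGR and ERBB2 only ERBB2 was, at 22.6 CPM. The libraries held 2497353 to 4579587 reads on the listed genes.

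LINC02515, LINC01133 and BCAN-AS1 were the 3 lncRNA genes that passed the test of IGFBP2 overexpression against control (adjusted p under 0.05, limma with Benjamini-Hochberg adjustment over all 10487 genes). The first 2 fell and BCAN-AS1 rose. They were 0.923% of the lncRNA genes, and 0.629% of all genes tested passed, so the share was near the background. Of the 325 lncRNA genes, 1 passed by rising and 2 by falling. Of all 10487 genes, 45 passed by rising (0.429%) and 21 by falling (0.2%). QuantSeq reads come from close to the 3′ end of polyadenylated transcripts, so the last 150 bases of the canonical transcript are shown for these genes and for ENSG00000272405, the nearest lncRNA gene to BCAN-AS1. They are written 5′ to 3′ in the direction of transcription, from GENCODE 44 on GRCh38, with every AATAAA and ATTAAA in capitals. These hexamers are the common forms of the polyadenylation signal, and where copies overlap the capitals run together.
LINC02515 (chr4:187415599-187415748, plus strand): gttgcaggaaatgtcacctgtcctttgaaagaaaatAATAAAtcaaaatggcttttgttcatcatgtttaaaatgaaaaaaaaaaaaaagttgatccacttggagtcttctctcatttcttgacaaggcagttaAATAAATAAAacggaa
LINC01133 (chr1:159984601-159984750, plus strand): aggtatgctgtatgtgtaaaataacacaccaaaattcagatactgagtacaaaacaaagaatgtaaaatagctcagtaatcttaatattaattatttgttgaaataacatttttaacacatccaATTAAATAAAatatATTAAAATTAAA
BCAN-AS1 (chr1:156637783-156637932, minus strand): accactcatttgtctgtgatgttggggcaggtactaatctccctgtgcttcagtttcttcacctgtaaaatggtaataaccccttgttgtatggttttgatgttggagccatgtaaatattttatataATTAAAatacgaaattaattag
ENSG00000272405 (chr1:156641666-156641815, minus strand): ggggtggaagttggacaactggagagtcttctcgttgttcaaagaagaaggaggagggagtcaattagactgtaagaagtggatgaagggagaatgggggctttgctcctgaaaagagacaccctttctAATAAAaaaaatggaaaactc

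The LINC02515 sequence held 3 copies, 1 of them 108 bases before the annotated end, and a run of 14 adenines between them. The LINC01133 sequence held 4 copies within the last bases, 3 of them ATTAAA. BCAN-AS1 ended with a single ATTAAA 16 bases before its end, and ENSG00000272405 with a single AATAAA 15 bases before its end. Over the whole canonical transcript the longest run of adenines was 20 bases in BCAN-AS1, outside the bases shown. It was 14 in LINC02515, 8 in ENSG00000272405 and 7 in LINC01133, and whether reads began at such runs was not tested. Over all 325 lncRNA genes, AATAAA was found on the transcribed strand in the last 50 bases of the canonical transcript in 153 (47.1%), ATTAAA without AATAAA in 25 (7.69%), and neither in 147 (45.2%). Of the protein-coding genes 66.9% held AATAAA, 15.5% ATTAAA alone and 17.6% neither. The lncRNA genes with AATAAA had a median level of 8.55 CPM and those with neither 8.27 CPM, so the level hardly differed between them. A match is a description of these letters and does not show where a transcript ended in these cells.

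LINC02515 (ENSG00000250620) lies on chromosome 4 from 187408232 to 187415748 on the plus strand, outside any protein-coding gene, with FAT1 as the nearest listed protein-coding gene at 681510 bases. It was read at 7.99, 28.1 and 12.9 CPM in the controls (replicates in order) and at 1.56, 0.968 and 1.64 CPM under overexpression. The groups did not overlap, and the lowest control stood well above the highest overexpression library. These levels rest on 36, 101 and 32 reads in the controls and 4, 3 and 5 reads in the overexpression libraries. On the log2(CPM + 1) scale LINC02515 changed by -2.70 (log2 fold change, SE 0.381, limma adjusted p = 0.0243), which understates the change of a gene this low. An exact permutation test over the libraries gave p = 0.1, the smallest that 3 libraries against 3 allow. LINC02515 passed in 2 of 6 fits with a library removed, failing without control replicate 3 or without any one of the overexpression libraries (adjusted p between 0.0649 and 0.117). With limma voom on the recovered reads its adjusted p was 0.0509.

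LINC01133 (ENSG00000224259), an intergenic lncRNA studied as a regulator of tumour cell growth and invasion, lies on chromosome 1 from 159958035 to 159984750 on the plus strand, 12422 bases from IGSF9. Control levels were 84.1, 79.6 and 78.4 CPM, and overexpression levels were 14.8, 13.6 and 37.1 CPM. The controls were tight, and overexpression replicate 3 stood apart from the other overexpression libraries while still lying below all controls. The log2 fold change was -1.99 (SE 0.342, limma adjusted p = 0.0455), with an exact permutation p of 0.1. The call was lost in 5 of 6 fits with a library removed, all but the one without overexpression replicate 3, with adjusted p up to 0.170. IGSF9 itself had a mean of 96.0 CPM in the controls and 73.1 CPM in the overexpression libraries, with overlapping groups (log2 fold change -0.23, adjusted p = 0.849 from limma).

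BCAN-AS1 (ENSG00000272068) lies on chromosome 1 from 156637783 to 156641004 on the minus strand and starts next to, and divergently from, BCAN, which encodes the extracellular matrix proteoglycan brevican. Its level was 1.78, 3.06 and 1.62 CPM in the controls and 19.1, 15.5 and 10.8 CPM in the overexpression libraries. Every overexpression library was above every control, and the controls held only 8, 11 and 4 reads. The log2 fold change was 2.35 (SE 0.260, limma adjusted p = 0.0102), with an exact permutation p of 0.1. It passed in every fit that left out a library except the one without overexpression replicate 2 (adjusted p = 0.0505).

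ENSG00000272405 lies on the same strand, 661 bases from BCAN-AS1, from 156641666 to 156644887, and shares exonic sequence with BCAN on the opposite strand. It was at 4.88, 4.73 and 0.809 CPM in the controls and at 14.4, 14.2 and 14.1 CPM in the overexpression libraries. The groups did not overlap, with control replicate 3 far below the other controls, and the log2 difference of 1.95 did not pass (adjusted p = 0.0933, limma). NES, which encodes the intermediate filament protein nestin and is the nearest listed protein-coding gene to both, had a mean of 25.9 CPM in the controls and 60.0 CPM in the overexpression libraries, with a log2 difference of 1.23 and non-overlapping groups (adjusted p = 0.121). The 3 neighbouring genes thus had higher means in the overexpression libraries, and 1 of them passed the test.

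**Figure D1:**
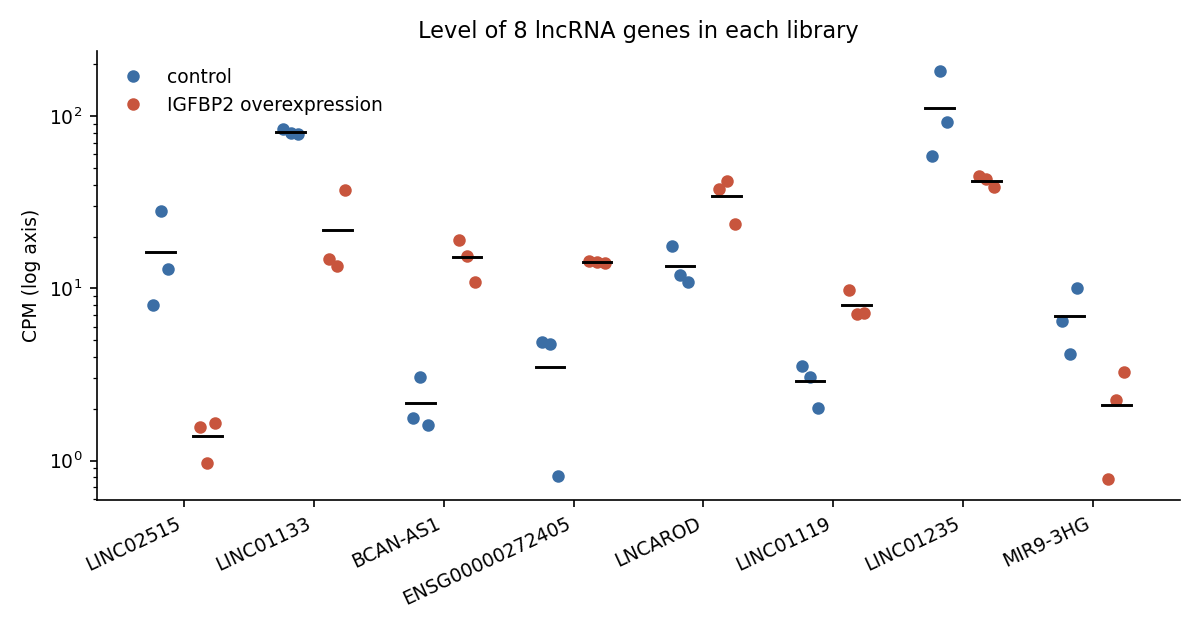
CPM on a log axis in each of the 3 control (blue) and 3 IGFBP2 overexpression (red) libraries for 8 lncRNA genes; points are libraries in replicate order and bars are group means. The groups do not overlap for any of the 8 genes shown, of which LINC02515, LINC01133 and BCAN-AS1 passed the test.

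The next genes by size, taken among those whose groups did not overlap, did not pass. Some were listed only through the group in which they were higher, so the direction of their mean difference followed from the filter, as described below. ENSG00000226197 and LINC01235 share a stretch of chromosome 9, LINC01235 on the minus strand from 13406380 to 13488125 inside the span of the other on the plus strand. LINC01235 was at 59.1, 183 and 93 CPM in the controls and 44.8, 42.9 and 38.8 CPM in the overexpression libraries (log2 difference -1.23, adjusted p = 0.204, and -0.80 without control replicate 2). ENSG00000226197 was at 9.10, 1.95 and 5.66 CPM against 0.390, 0.323 and 1.64 CPM (log2 difference -1.78, adjusted p = 0.144). The libraries of the 2 genes were not in the same order, since control replicate 2 was the highest control for LINC01235 and the lowest for ENSG00000226197. The setting of strand in the counting is not stated, so reads of genes that overlap on opposite strands, here and below, may not have been separated.

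OLMALINC lies 8273 bases from SCD, which encodes the enzyme that makes monounsaturated fatty acids, and was at 5.55, 6.95 and 2.83 CPM in the controls and 1.95, 0.323 and 2.63 CPM in the overexpression libraries (log2 difference -1.27, adjusted p = 0.236, and -0.84 without overexpression replicate 2). SCD had means of 349 and 142 CPM with a log2 difference of -1.27 (adjusted p = 0.09996). ENSG00000254682, inside DHCR7 without sharing an exon with it, was at 11.8, 10.6 and 17.0 CPM against 3.12, 5.49 and 8.21 CPM (log2 difference -1.14, adjusted p = 0.176). DHCR7, the last enzyme of cholesterol synthesis, had means of 162 and 101 CPM (log2 difference -0.63, adjusted p = 0.315). All 4 had groups that did not overlap, and none passed.

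The remaining large differences in the lower direction were MCF2L-AS1 (log2 difference -1.09, adjusted p = 0.120), ENSG00000260604 (-1.16), DNAJC27-AS1 (-1.08) and MIR9-3HG (-1.37, described with the microRNA hosts below). MCF2L-AS1, which is antisense to exons of MCF2L, was at 19.1, 23.6 and 14.2 CPM in the controls and 9.75, 6.13 and 9.20 CPM in the overexpression libraries. For ENSG00000260604 control replicate 2 stood at 28.6 CPM while the other controls were at 6.22 and 8.90 CPM, and the log2 difference was -0.56 without replicate 2. That of DNAJC27-AS1 was -0.62 without overexpression replicate 2.

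In the higher direction, LINC01119 was at 3.55, 3.06 and 2.02 CPM in the controls and 9.75, 7.10 and 7.23 CPM in the overexpression libraries (log2 difference 1.23, adjusted p = 0.0531, limma), and it passed only when values were scaled by the upper quartile (adjusted p = 0.0499). LNCAROD, an lncRNA known as a regulator of DKK1, the secreted Wnt inhibitor, was at 17.5, 12.0 and 10.9 CPM against 37.8, 42.3 and 23.7 CPM (log2 difference 1.28, adjusted p = 0.0933). DKK1 was low, with means of 3.37 and 6.52 CPM and overlapping groups. LNCAROD passed with a mean-variance trend (adjusted p = 0.0231) and with voom (adjusted p = 0.0419). SH3TC2-DT, which starts 76 bases from SH3TC2, was at 4.44, 2.50 and 0.809 CPM against 8.97, 8.72 and 6.57 CPM (log2 difference 1.47, adjusted p = 0.141), and LINC02976 had a log2 difference of 1.16 (adjusted p = 0.0669). LINC01895, ELF3-AS1, WT1-AS and ENSG00000278291 completed the 10 largest differences upwards, at 1.08, 1.01, 1.00 and 0.89. That of WT1-AS was 0.46 without control replicate 3, in which it was at 6.87 CPM. ELF3 and WT1, the transcription factor genes that ELF3-AS1 and WT1-AS accompany, had log2 differences of -0.15 and 0.25 with overlapping groups.

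Across all 325 lncRNA genes, 25 had every overexpression library above every control (7.69%, against 9.43% of all genes) and 38 had every one below (11.7%, against 8.61%). The total of 63 non-overlapping genes was 19.4%, close to the 18% of all genes. The median log2 fold change was -0.11 for the lncRNA genes and 0.00 for the protein-coding genes, with 150 lncRNA genes above 0 and 175 below. Without overexpression replicate 1 that median was -0.042. A fold change above 2 in either direction was seen in 24 lncRNA genes (7.38%, against 3.31% of all genes). An unadjusted p under 0.05 was reached by 77 lncRNA genes (23.7%, against 13% of all genes). With a mean-variance trend in the fit these were 57 lncRNA genes (17.5%, against 13.4%), and with voom 55 (16.9%, against 13.3%).

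The filter weighs on these counts. A gene kept through 1 group alone had to have a lower mean CPM in the other, and this held for 92 lncRNA genes (28.3%) but only 5.44% of the protein-coding genes. Of the 51 kept through the controls alone, 50 had a log2 fold change below 0, and all 41 kept through the overexpression libraries alone were above 0. LINC02515 belonged to the first kind and BCAN-AS1 to the second. Of the large differences that did not pass, ENSG00000226197, OLMALINC and MIR9-3HG were also of the first kind. ENSG00000272405, SH3TC2-DT and LINC01119 were of the second. Of the 233 lncRNA genes above 5 CPM in both groups, LINC01133 alone passed (0.429%, against 0.418% of the protein-coding genes above 5 CPM in both). In these 233 genes, 35 had groups that did not overlap (15%, against 17.1%), 7 changed more than 2-fold (3%, against 1.96%), and the median log2 fold change was -0.070.

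**Figure D2:**
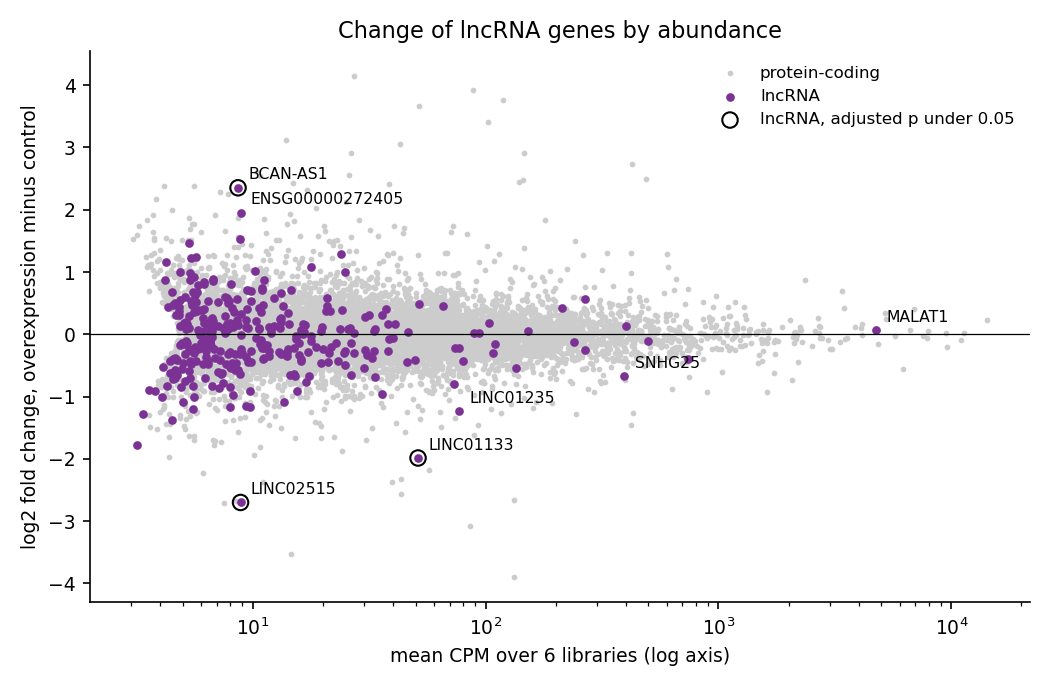
Log2 fold change, on the scale of log2(CPM + 1), against mean CPM over the 6 libraries (log axis) for lncRNA (purple) and protein-coding genes (grey), with the 3 lncRNA genes past the test circled. The lncRNA genes lie mostly at the low end, where 189 of 325 are under 10 CPM, and MALAT1 stands alone at the high end with a log2 fold change of 0.07.

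The lncRNA genes were less abundant than the protein-coding genes. Their median level was 8.55 CPM (quartiles 5.81 and 16.5), against 32.1 CPM, which gave a median of 25.5 reads per library against 97.5. In all, 58.2% of lncRNA genes but 16% of protein-coding genes were under 10 CPM, and 14 lncRNA genes (4.31%) but 18.8% of protein-coding genes were above 100 CPM. The kit makes fragments near the 3′ end of transcripts, so CPM was not divided by length. It primes on stretches of adenine, and whether capture differed between the classes was not tested, beside the shares of transcripts without either hexamer given above.

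**Figure D3:**
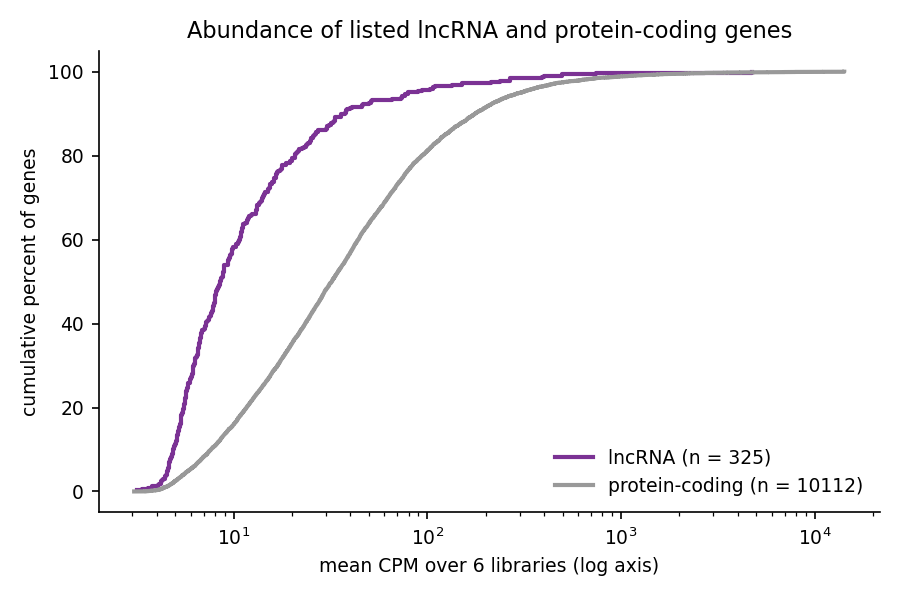
Cumulative percent of the 325 lncRNA (purple) and 10112 protein-coding (grey) genes against their mean CPM over the 6 libraries (log axis). The lncRNA curve lies to the left, with medians of 8.55 and 32.1 CPM.

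MALAT1, a nuclear RNA of the splicing speckles, was by far the most abundant. It was at 6052, 3829 and 3974 CPM in the controls and 5979, 5408 and 3261 CPM in the overexpression libraries, so the groups overlapped and the spread within each was large (log2 fold change 0.07, adjusted p = 0.952). It took 28.2% to 45.8% of all lncRNA reads in a library, and the 10 most abundant lncRNA genes together 59.0% to 67.1%. The share of reads on lncRNA genes was 1.28% ± 0.0854 in the controls and 1.24% ± 0.0850 in the overexpression libraries (SD, n = 3 each, exact permutation p = 0.5). Without MALAT1 the shares were 0.820% ± 0.0924 and 0.747% ± 0.0654 (SD, n = 3 each, exact permutation p = 0.3). The groups overlapped in both, and the first difference turned from lower to higher without overexpression replicate 3.

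NEAT1, the scaffold of nuclear paraspeckles, was at 235, 122 and 313 CPM in the controls and 367, 291 and 278 CPM in the overexpression libraries (log2 difference 0.57, adjusted p = 0.500). Control replicate 2 held the lowest level, the other libraries overlapped, and the log2 difference was 0.19 without it. CYTOR was at 187, 177 and 178 CPM against 202, 235 and 297 CPM, without overlap (log2 difference 0.42, adjusted p = 0.415, and 0.27 without overexpression replicate 3). MIR4435-2HG, a close copy of CYTOR with which it may share reads, was at 380, 404 and 357 CPM against 343, 419 and 500 CPM, with overlap. LINC00665 was at 135 to 163 CPM in the controls and 145 to 175 CPM in the overexpression libraries, again with overlap.

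The snoRNA hosts are genes whose introns carry snoRNAs, which guide the modification of ribosomal and other RNAs. Of 32 such genes in the list, 13 were listed in these data and none passed, while 0.629% of all genes did. Of the 13, 10 lay below 0, against 5241 of all 10487 genes, and the median log2 fold change was -0.16, against 0.00 for all genes. At an unadjusted p under 0.05 there were 2 (15.4%, against 13% of all genes and 23.7% of all lncRNA genes). SNHG25 was at 406, 483 and 556 CPM in the controls and 228, 321 and 366 CPM in the overexpression libraries, without overlap (log2 difference -0.67, adjusted p = 0.278). SNHG10 was at 26.9, 20.9 and 21.0 CPM against 16.0, 16.8 and 16.1 CPM, also without overlap (log2 difference -0.46, adjusted p = 0.335). The groups overlapped for ZFAS1, which was at 721, 1167 and 651 CPM against 591, 478 and 836 CPM. They also overlapped for SNHG32 (log2 difference -0.11), SNHG8 (-0.26), SNHG7 (-0.12) and SNHG9 (-0.41). ZFAS1, SNHG32 and SNHG8 had their highest control level in replicate 2 and their highest overexpression level in replicate 3. Over all lncRNA genes, control replicate 2 was the highest control for 44% and overexpression replicate 3 the highest overexpression library for 44%, against 35.3% and 35.7% of protein-coding genes. Without control replicate 2 the log2 difference was -0.15 for ZFAS1, -0.03 for SNHG8 and 0.26 for SNHG32.

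The microRNA hosts carry microRNA hairpins in an intron or exon. Of 35 such genes 11 were listed and none passed, while 0.629% of all genes did. Of the 11, 6 lay below 0, against 5241 of all 10487 genes, and the median log2 fold change was -0.23, against 0.00 for all genes. At an unadjusted p under 0.05 there were 4 (36.4%, against 13% of all genes and 23.7% of all lncRNA genes). The microRNAs of MIR9-3HG and MIR762HG, and those of DLEU2 that share a seed, are shown for the 3 hosts with the smallest p-values, with the other 4 mature sequences of DLEU2 left out and the seed, bases 2 to 8, in capitals. The sequences come from RefSeq on GRCh38, written 5′ to 3′, and the libraries measure the host transcripts and not the microRNAs.
hsa-miR-9-5p in MIR9-3HG (chr15:89368032-89368054, plus strand): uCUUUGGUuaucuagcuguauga
hsa-miR-9-3p in MIR9-3HG (chr15:89368071-89368092, plus strand): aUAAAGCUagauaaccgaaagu
hsa-miR-762 in MIR762HG (chr16:30893951-30893972, plus strand): gGGGCUGGggccggggccgagc
hsa-miR-15a-5p in DLEU2 (chr13:50049167-50049188, minus strand): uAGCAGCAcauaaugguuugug
hsa-miR-16-5p in DLEU2 (chr13:50049027-50049048, minus strand): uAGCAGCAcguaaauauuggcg

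MIR9-3HG, the host of miR-9, was at 6.44, 4.17 and 10.1 CPM in the controls and 0.780, 2.26 and 3.28 CPM in the overexpression libraries, without overlap (log2 difference -1.37, adjusted p = 0.176). MIR762HG, antisense to exons of BCL7C, was at 11.1, 7.79 and 12.9 CPM against 7.41, 7.42 and 5.26 CPM, also without overlap (log2 difference -0.58, adjusted p = 0.335). DLEU2 hosts miR-15a and miR-16, whose 5p arms have the same seed in the sequences above. It was at 9.55, 8.07 and 9.70 CPM against 12.1, 12.6 and 14.5 CPM (log2 difference 0.47, adjusted p = 0.308). DLEU2 thus lay higher and the other 2 hosts lower in every overexpression library, and none of the 3 differences passed.

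Of 64 lncRNAs that have been linked to cancer cell growth or invasion, 16 were listed and 1, LINC01133, passed, by falling. All genes passed at 0.629%. Of these 16, 12 lay above 0, against 5246 of all 10487 genes, and the median log2 fold change was 0.35, against 0.00. At an unadjusted p under 0.05 there were 4 (25%, against 13% of all genes and 23.7% of all lncRNA genes). HOTAIR, which runs antisense through the HOXC cluster and is known for its association with breast cancer metastasis, was among the steadiest lncRNA genes. It was at 32.4, 30.6 and 34.8 CPM in the controls and 35.5, 34.5 and 31.9 CPM in the overexpression libraries (log2 difference 0.06, standard error 0.173). LINP1, an lncRNA of DNA end joining, was at 7.99, 4.45 and 4.45 CPM against 10.5, 12.9 and 7.88 CPM, and the groups overlapped (log2 difference 0.81, adjusted p = 0.252). PVT1, which lies beside MYC, was at 22.4, 20.6 and 19.4 CPM against 24.2, 32.0 and 26.9 CPM without overlap (log2 difference 0.39, adjusted p = 0.421), and MYC had means of 21.8 and 20.2 CPM.

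None of the 5 listed nuclear-retained lncRNAs (of 13), 5 cytoplasmic ones (of 12), 2 p53-regulated ones (of 16) or 8 linked to inflammation and stress (of 28) passed. Over all genes 0.629% passed. Of those not described so far, LINC00467 had a log2 difference of -0.45, HCG11 of -0.66, JPX of 0.17 and NRAV, a regulator of antiviral genes, of 0.52. The groups did not overlap for LINC00467 and HCG11 and overlapped for JPX and NRAV. At an unadjusted p under 0.05 there was 1 gene in the inflammation and stress list (12.5%, against 13% of all genes) and none in the nuclear, cytoplasmic and p53 lists.

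By position, the genes that passed were intergenic (LINC02515 and LINC01133) or divergent (BCAN-AS1). Intergenic lncRNA genes numbered 74, of which 24 had groups that did not overlap (32.4%, 16 of them lower), against 18% of all genes. An unadjusted p under 0.05 was reached by 29 of the 74 (39.2%, against 13% of all genes and 23.7% of all lncRNA genes). Since 24 of the 74 were kept through 1 group alone, the 50 above 5 CPM in both groups were also counted. Of these 50, 14 did not overlap (28%, 8 of them lower), against 17.1% of protein-coding genes above 5 CPM in both. An unadjusted p under 0.05 was reached by 14 of the 50 (28%, against 10.8% of those protein-coding genes). Of 57 genes that start within 1000 bases of a protein-coding gene on the other strand, 11 did not overlap (19.3%) and 10 had an unadjusted p under 0.05 (17.5%). Among the 38 of them above 5 CPM in both groups these were 5 (13.2%) and 3 (7.89%). Of these 57, 40 lay below 0, against 5241 of all 10487 genes. Of 133 genes that share an exon with a protein-coding gene on the opposite strand, 22 did not overlap (16.5%) and none passed, with 28 at an unadjusted p under 0.05 (21.1%). Among the 97 above 5 CPM in both groups, 13 did not overlap (13.4%) and 15 had an unadjusted p under 0.05 (15.5%). Of 27 that share an exon on the same strand, where reads can be assigned to either gene, 3 did not overlap (11.1%) and none passed, with 4 at an unadjusted p under 0.05 (14.8%). Among the 22 above 5 CPM in both groups, 1 did not overlap (4.55%) and 2 had an unadjusted p under 0.05 (9.09%). The other genes were 21 inside a protein-coding gene without a shared exon and 13 just downstream of one, with 1 and 2 genes that did not overlap, none past the test and 3 each at an unadjusted p under 0.05 (14.3% and 23.1%). The 165 lncRNA genes that share no exon with a protein-coding gene held all 3 calls (1.82%, against 0.629% of all genes tested). Of these 165, 114 were above 5 CPM in both groups, and LINC01133 was the only call among them. LINC02515 and BCAN-AS1 had each been kept through 1 group alone, so the share of 1.82% rests in part on the filter. With voom 4 lncRNA genes passed (1.23%, against 1.34% of all genes), and with a mean-variance trend 6 did (1.85%, against 1.53%).

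A protein-coding gene was listed within 500000 bases of 319 lncRNA genes, and in 180 of these pairs both had log2 fold changes of the same sign. Across these pairs Pearson's r was 0.33 and Spearman's rho 0.21, values that describe genes measured in the same 6 libraries and pairs of which some share a neighbour. Of the pairs in which the protein-coding gene passed, 4 are given here, singled out after their values were seen, and none of their lncRNA genes passed. SFTA1P, 3350 bases from CELF2, was at 44.6, 32.0 and 68.3 CPM in the controls and 17.2, 24.5 and 29.6 CPM in the overexpression libraries without overlap (log2 difference -0.96, adjusted p = 0.237), while CELF2, an RNA-binding protein gene, fell from a mean of 14.0 to 1.13 CPM (log2 fold change -2.70, adjusted p = 0.0170). MANCR, 285037 bases from AKR1C1, was at 8.44, 0.556 and 4.85 CPM against 17.2, 16.1 and 5.58 CPM with overlap (log2 difference 1.53, adjusted p = 0.350, and 0.77 without control replicate 2), while AKR1C1, an aldo-keto reductase with close paralogs, rose from 9.09 to 76.6 CPM (log2 fold change 3.05, adjusted p = 0.0130). The others were PRR34-AS1 with WNT7B (log2 differences -0.54 and -1.40) and NUTM2B-AS1 with ZCCHC24 (0.36 and 1.41). In these 4 pairs the log2 fold changes had the same sign. The protein-coding gene had the larger one, which choosing the pairs by its call favours.

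**Figure D4:**
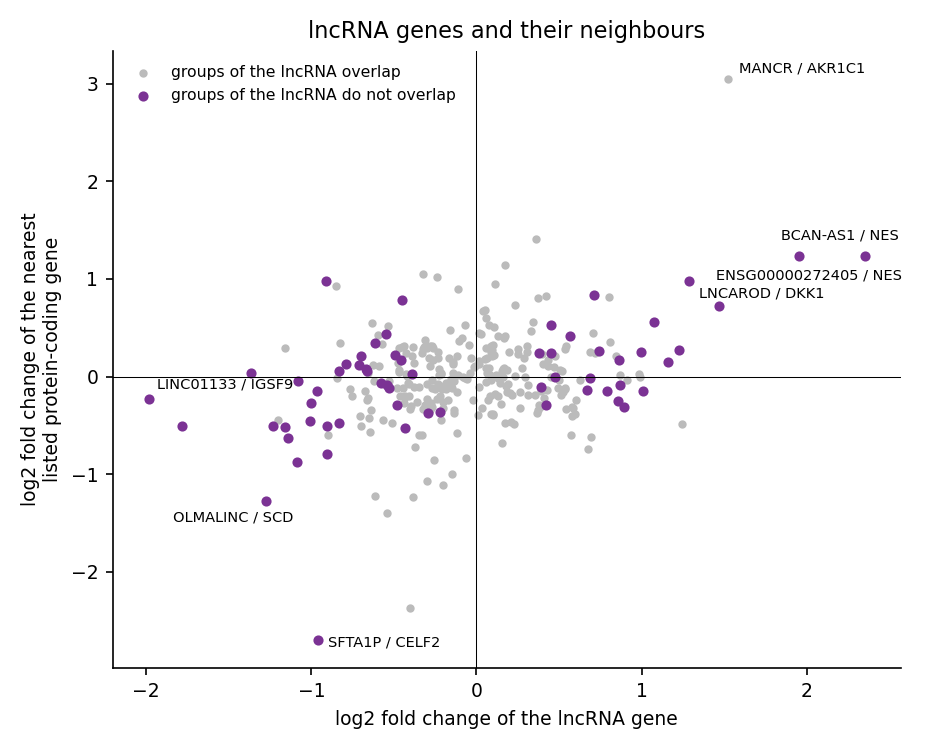
Log2 fold change of each lncRNA gene against that of its nearest listed protein-coding gene within 500000 bases, for 319 pairs; purple points are lncRNA genes whose groups do not overlap. BCAN-AS1 and ENSG00000272405 share the neighbour NES, OLMALINC pairs with SCD and SFTA1P with CELF2, and LINC02515 has no listed neighbour within this distance.

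Replicates of lncRNA genes spread more than those of protein-coding genes. The within-group standard deviation (SD) of log2(CPM + 1) had a median of 0.416 for lncRNA genes and 0.267 for protein-coding genes. Taken apart by group, the medians were 0.401 and 0.268 in the controls and 0.344 and 0.212 in the overexpression libraries. The medians differed by 0.149 over all genes and by 0.0641 (a weighted mean) within ranges of mean CPM, and the latter was 0.0162 without control replicate 2. The genes of a class share these libraries and are not replicates, so no test was made. The median distance of a library from its group mean was larger for lncRNA genes in all 6 libraries, by 0.0450 to 0.117 without regard to abundance.

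Below 5 CPM the median SD was 0.491 for the 37 lncRNA genes and 0.474 for protein-coding genes. From 5 to 7.5 CPM, the range with the most lncRNA genes, it was 0.458 for 98 of them and 0.427 for protein-coding genes. From 7.5 to 10 CPM it was 0.495 for 54 lncRNA genes and 0.394 for protein-coding genes. From 10 to 20 CPM it was 0.394 for 69 lncRNA genes against 0.318, and from 20 to 50 CPM it was 0.342 for 43 against 0.259. The SD that counting alone gives was close for the 2 classes in each range, for example 0.209 and 0.204 from 10 to 20 CPM. The observed SD was above it for both, in that range by a median ratio of 1.86 for lncRNA and 1.55 for protein-coding genes. Above 50 CPM only 24 lncRNA genes remained.

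**Figure D5:**
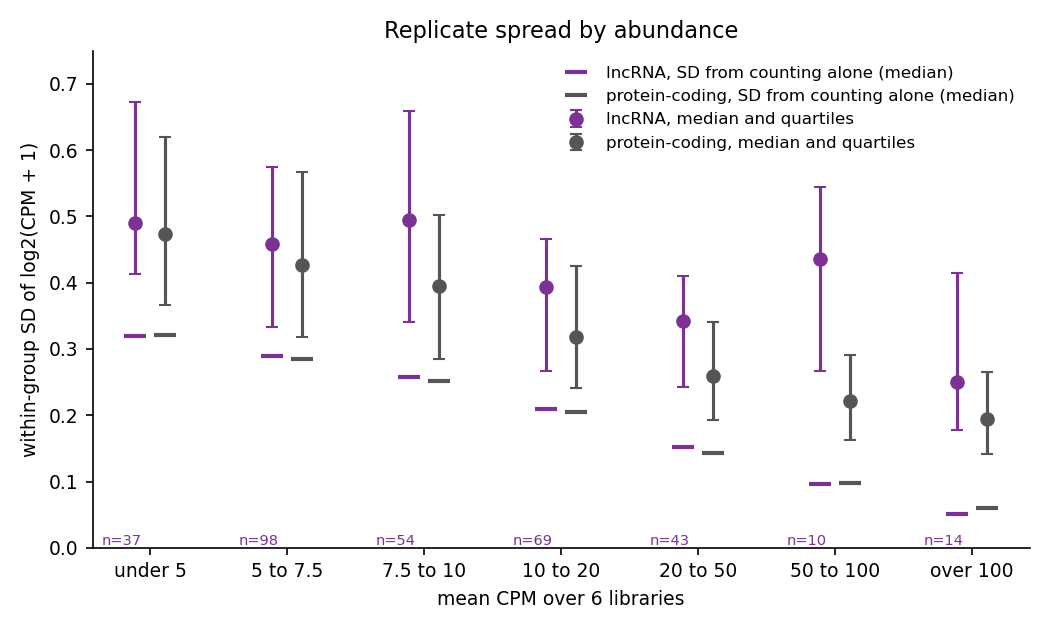
Within-group SD of log2(CPM + 1) by range of mean CPM, shown as medians with quartiles for lncRNA (purple, with the number of genes) and protein-coding genes (dark grey); short bars give the median SD from counting alone. In every range the lncRNA median is the higher, from 0.491 against 0.474 under 5 CPM to 0.342 against 0.259 at 20 to 50 CPM.

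The spread differed widely between single lncRNA genes. HOTAIR (SD 0.0842), CRNDE (0.120) and GSEC (0.121) were the steadiest. CRNDE, 1676 bases from IRX5, was at 123, 113 and 118 CPM in the controls and 92.4, 87.8 and 109 CPM in the overexpression libraries, without overlap (log2 difference -0.30, adjusted p = 0.536). GSEC was at 15.8, 18.4 and 18.2 CPM against 21.8, 24.9 and 26.0 CPM, also without overlap (log2 difference 0.45, adjusted p = 0.331). At the other end stood MANCR (SD 1.12), ENSG00000272512 (1.12) and LINC00324 (0.967). ENSG00000272512, 911 bases from HES4, was at 16.4, 2.23 and 22.6 CPM in the controls, with replicate 2 far below the others, and at 8.97, 12.9 and 15.1 CPM in the overexpression libraries. LINC00324 was at 7.77, 9.74 and 1.21 CPM against 8.19, 6.78 and 3.28 CPM, with the third replicate lowest in both groups.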

How the data were processed

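Total RNA of 3 control and 3 IGFBP2 overexpression replicates of MDA-MB-468 cells was sequenced from the 3′ end with the QuantSeq FWD kit. The authors trimmed reads with bbduk, ran STAR against hg38 (Ensembl 93), obtained gene counts from htseq-count (HTSeq 0.9.1 per the submitters' processing notes, strand setting not given in the sources used here) and normalized these with edgeR. Genes averaging above 5 CPM in 1 or both conditions were kept, and log2(CPM + 1) values were deposited. Steps in the deposited values gave back read numbers (100% whole, tolerance 0.05 reads), so depth was known for the listed genes only.

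GENCODE 44 gave gene types, positions and symbols on GRCh38 and matched 10462 of 10487 identifiers. The deposited log2 values of all genes were fitted with limma 3.58.1 (lmFit and eBayes without a trend, condition as the only term, R 4.3.3) and p-values adjusted by Benjamini-Hochberg over all genes. Summaries and two-sided exact permutation tests used Python 3.11.15, pandas 2.3.3 and scipy 1.17.1. The fit was tested on simulated data. Counting error alone was taken from the recovered reads, which are not independent molecules. The lncRNA genes, the lists and the tests were chosen with earlier results of these data known.

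Named genes were LINC02515, every lncRNA gene that passed, the 10 most abundant, the 10 largest differences each way among genes with non-overlapping groups, 3 genes of each list by smallest p, the 3 largest and 3 smallest SDs, and the nearest protein-coding gene of each gene that passed. Other neighbours were named after their values were seen, and one pair is not reported here. Alternatives changed the trend, test, scaling, pseudocount, filter, threshold, replicate block, member definition and each library in turn. XIST and Y-linked genes were not analysed here.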

Additional observations from a re-analysis of the deposited data

How the results depend on the processing

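The count of lncRNA genes past the threshold was 3, and 6 with a mean-variance trend (3 higher, 3 lower, the same 3 among them, with LNCAROD, LINC01235 and ENSG00000272405 added), 5 at a pseudocount of 5, and 0 at an adjusted p under 0.01 (limma, with 77 at an unadjusted p under 0.05). It ranged from 0 to 3 with a library left out, at 1 without control replicate 3 or overexpression replicate 1 and 0 without overexpression replicate 2. Of all genes, 160 passed with the trend, 141 with voom and 66 without either. LINC02515 had a log2 fold change of -3.20 with voom, which did not pass, and from -3.09 to -2.24 with a library left out, over all settings with adjusted p from 0.00446 to 0.117. That of LINC01133 ranged from 0.00194 to 0.170 and that of BCAN-AS1 from 0.00221 to 0.0505. Edge cases of the threshold were LINC01133 at a pseudocount of 0.1 (adjusted p = 0.0759) and ENSG00000272405 with voom (0.0478). The median log2 fold change ranged from -0.122 to -0.042 and the difference in read share from -0.0910 to 0.00346 percentage points with a library left out. The difference in SD was 0.1004 at an average CPM above 10 and from 0.0162 to 0.0613 with a library left out.

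With a library left out, the sign turned for MALAT1 (-0.10 to 0.33), SNHG32 (-0.32 to 0.26), LINC00665 (-0.032 to 0.13), ENSG00000272512 (-0.63 to 0.80), LINC00324 (-0.53 to 0.61), SNHG7 (-0.26 to 0.015), MIR4435-2HG (-0.0028 to 0.27) and JPX (-0.033 to 0.31). Over 46 named genes and the settings, 597 values kept sign and side of the threshold, 14 turned, 10 newly passed and 13 no longer did. Deviations from the group means had correlations of 0.17, -0.06 and 0.08 between same-numbered libraries. Whether such libraries were handled together is not stated, and these values cannot show it. With the replicate number as a block, 2 lncRNA genes passed (LINC02515 and BCAN-AS1), and LINC01133 had an adjusted p of 0.0521. The edgeR and DESeq2 tests that had been planned were not run, since the deposited unit is log2, although read numbers were recovered and voom was run on them. The paper tested these lines with edgeR and reported more genes at a false discovery rate under 0.05 than passed in the main limma fit here. The lncRNA genes had a median of 25.5 reads per library, and how far depth limited their calls was not tested.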
